A study of Mus musculus with 98 samples.

Results

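The 37 genes described here encode the glucose and lactate carriers, the glycolytic enzymes, the kinases that steer pyruvate away from the mitochondrion, and the oxygen-sensing and hypoxia-response proteins that are commonly regulated with them. They were taken by gene symbol from every deposited table of raw counts and make up 37 of 21813 symbols. All 37 passed the filter on low counts in each table that was tested. By role they divide into 4 sugar and lactate carriers, 9 enzymes of upper glycolysis, 2 Pfkfb regulators, 8 enzymes of lower glycolysis and lactate dehydrogenase, 2 pyruvate dehydrogenase kinases, 3 mitophagy and respiratory chain adaptors, 3 genes of oxygen sensing and 6 other hypoxia-response genes.

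When oxygen is plentiful, prolyl hydroxylases of the Egln family mark the protein Hif1a for destruction. When oxygen is low, Hif1a escapes, pairs with Arnt and binds short ACGTG or GCGTG motifs near genes for glucose uptake, glycolysis, lactate export, mitophagy and blood vessel growth. Hif1a is controlled largely at the level of its protein, so its mRNA and the mRNAs of its targets need not move together. In the mouse blastocyst the primitive endoderm and the epiblast separate from a common inner cell mass, and glucose uptake and glycolysis increase around this stage.

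The study used mouse TBLC (totipotent blastomere-like cells) and followed their change toward an epiblast-like and a primitive-endoderm-like state. Every group has 2 libraries. PrE-T and EPI-T are the CD140-positive and CD140-negative cells sorted after 3 days of TBLC culture in SLM medium, and were compared with each other and with undifferentiated TBLC in 2MYCP medium. Unsorted cells after 3 days in SLM, called diffTBLC, were compared with TBLC in 2MYCP over 0, 1, 2 and 3 h of actinomycin D, which blocks transcription. Cells after 8 h in SLM, named TBLC_PlaB- in the labels, were compared with TBLC_Ctrl in 2MYCP over the same hours. The effect of the medium cannot be told apart from that of the loss of PlaB that the name implies. In diffTBLC, siRNA against the m6A writer subunits Mettl3 and Virma was compared with the control siRNA siNC, and siVirma and siIgf2bp3 were compared with siNC1 and siNC2 over 0 to 3 h of actinomycin D. RNA bound by the m6A readers Igf2bp3 and Ythdf2 was immunoprecipitated (IP) from diffTBLC and compared with its input. The labels do not say whether the 2 libraries of a group came from separate cultures, so each p-value is set against the spread of these library pairs alone, which may be technical.

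Library totals lay between 2483808 and 29471283 counts, and the 37 genes together took between 0.62% and 2.93% of the counts of a library. Their share was 1.33% and 1.32% in PrE-T, 1.21% in both EPI-T libraries and between 0.62% and 0.64% in TBLC of the same table. Over genes with a mean of at least 20 CPM, replicates differed by a root mean square of 0.0683 to 0.201 on the log2 scale. The early hours of both control arms stood apart by the same measure. The distance from 0 h to 1 h was 0.157 in siVirma and 0.609 in siNC1, from 1 h to 2 h 0.25 in siVirma and 0.398 in siNC1, and from 0 h to 2 h 0.367 in siVirma and 0.427 in siNC1. It was 0.17 in the libraries labelled siIgf2bp3 and 0.723 in siNC2 from 0 h to 1 h, 0.264 and 0.438 from 1 h to 2 h, and 0.399 and 0.467 from 0 h to 2 h. In each control arm 0 h thus lay nearer to 2 h than to 1 h, and siNC2 at 1 h lay 0.28 from the libraries labelled siIgf2bp3 at 0 h. These distances do not tell whether the 0 h or the 1 h libraries of siNC1 and siNC2 are out of place. The control libraries at 3 h are in doubt too. The share of counts from genes encoded in the mitochondrion rose from 1.42% and 1.28% at 2 h to 1.85% and 1.83% at 3 h in siNC1. In siNC2 it rose from 1.68% and 1.66% to 2.15% and 2.19%. It fell over these hours in siVirma and in the libraries labelled siIgf2bp3. From 0 h to 1 h the share also rose in siNC1, from 1.53% and 1.38% to 2.23% and 2.22%. In siNC2 it rose from 1.69% and 1.61% to 2.53% and 2.47%. It fell from 2.14% to 1.66% in both siVirma replicates. In the libraries labelled siIgf2bp3 it fell from 2.56% and 2.51% to 2.00% and 1.92%. Which control libraries are out of place was not tested. Values are therefore given for 0 h, for 1 to 3 h and, for the counts of members, also for 2 h and 3 h alone. The counts at 3 h alone share this doubt. Gapdh lay between 130 and 234 CPM (counts scaled to a common library total) in the sorted-cell table and between 2664 and 6820 CPM in the table of diffTBLC and TBLC, so levels were not compared between tables. Reads of Gapdh, Pgk1, Pgam1, Eno1, Ldha, Aldoa, Tpi1 and Pkm can be shared with processed pseudogenes or a near-identical copy. How the authors assigned such reads is not given, and these 8 genes are uncertain to that extent. In bulk RNA, fewer cells of a type and less RNA per cell cannot be told apart, which holds for every level below.

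The promoters of 4 members that were lower after 8 h in SLM over 1 to 3 h of actinomycin D (Bnip3, Slc16a3, Egln3 and Ankrd37, with values given below) show the letters that HIF-type factors bind. The sequences are from RefSeq on GRCm38.p6, 5′ to 3′ on the strand of the gene, and cover 250 bases before the start of transcription and 50 after it. Capitals mark ACGTG or GCGTG on either strand, which reads as CACGT or CACGC on the other. Overlapping matches around a shared central CG were counted as 1 site. The Bnip3 window is chr7:138909457-138909756 on the minus strand with 4 sites, the Slc16a3 window chr11:120948817-120949116 on the plus strand with 2 sites, the Egln3 window chr12:54203825-54204124 on the minus strand with 1 site, and the Ankrd37 window chr8:45999801-46000100 on the minus strand with 4 sites.
Bnip3: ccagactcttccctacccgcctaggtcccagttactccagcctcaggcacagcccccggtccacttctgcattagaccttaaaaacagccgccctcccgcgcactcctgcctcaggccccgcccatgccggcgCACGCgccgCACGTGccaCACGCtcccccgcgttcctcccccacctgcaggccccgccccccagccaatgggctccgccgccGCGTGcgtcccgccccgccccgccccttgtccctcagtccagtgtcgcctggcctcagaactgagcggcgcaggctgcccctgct
Slc16a3: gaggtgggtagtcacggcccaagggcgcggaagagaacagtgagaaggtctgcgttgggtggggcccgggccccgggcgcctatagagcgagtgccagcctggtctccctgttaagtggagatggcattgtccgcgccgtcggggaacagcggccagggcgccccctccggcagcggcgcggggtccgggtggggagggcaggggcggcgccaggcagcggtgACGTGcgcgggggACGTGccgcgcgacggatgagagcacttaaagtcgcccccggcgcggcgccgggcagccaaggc
Egln3: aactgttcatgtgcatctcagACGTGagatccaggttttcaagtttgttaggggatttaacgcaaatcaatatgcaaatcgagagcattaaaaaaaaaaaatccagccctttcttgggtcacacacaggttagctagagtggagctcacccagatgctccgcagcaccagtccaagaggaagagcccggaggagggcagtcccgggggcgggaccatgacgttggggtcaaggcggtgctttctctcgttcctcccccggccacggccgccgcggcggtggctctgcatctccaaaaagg
Ankrd37: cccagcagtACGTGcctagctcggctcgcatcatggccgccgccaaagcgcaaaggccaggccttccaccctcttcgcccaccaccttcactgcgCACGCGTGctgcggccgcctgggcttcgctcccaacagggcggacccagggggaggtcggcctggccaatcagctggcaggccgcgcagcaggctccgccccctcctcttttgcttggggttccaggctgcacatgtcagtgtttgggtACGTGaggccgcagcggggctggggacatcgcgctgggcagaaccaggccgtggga
The Slc16a3 sites lie 26 and 13 bases before the start, and the Bnip3 sites lie between 115 and 34 bases before it. Of the 34 members with a promoter in the table, 31 held at least 1 such site in a 300-base window, which is 91.2%, and 24 held at least 2 sites, which is 70.6%. Among all 27025 genes with a promoter the shares were 46.7% and 19.5%, and among the 11315 of them that were tested in the sorted cells 66.1% and 33.4%. In these counts a gene with several listed starts was counted by the window with the most sites. The members without a site at any listed start were Eno2, Gpi1 and Tpi1. At 1 h of actinomycin D they were lower after 8 h in SLM too, by -0.27, -0.28 and -0.41. Hif1a, with 2 sites, was higher at that hour, by 0.45. The promoters shown are a choice from the 26 members that were lower over 1 to 3 h. A match describes these letters only.

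**Figure D1:**
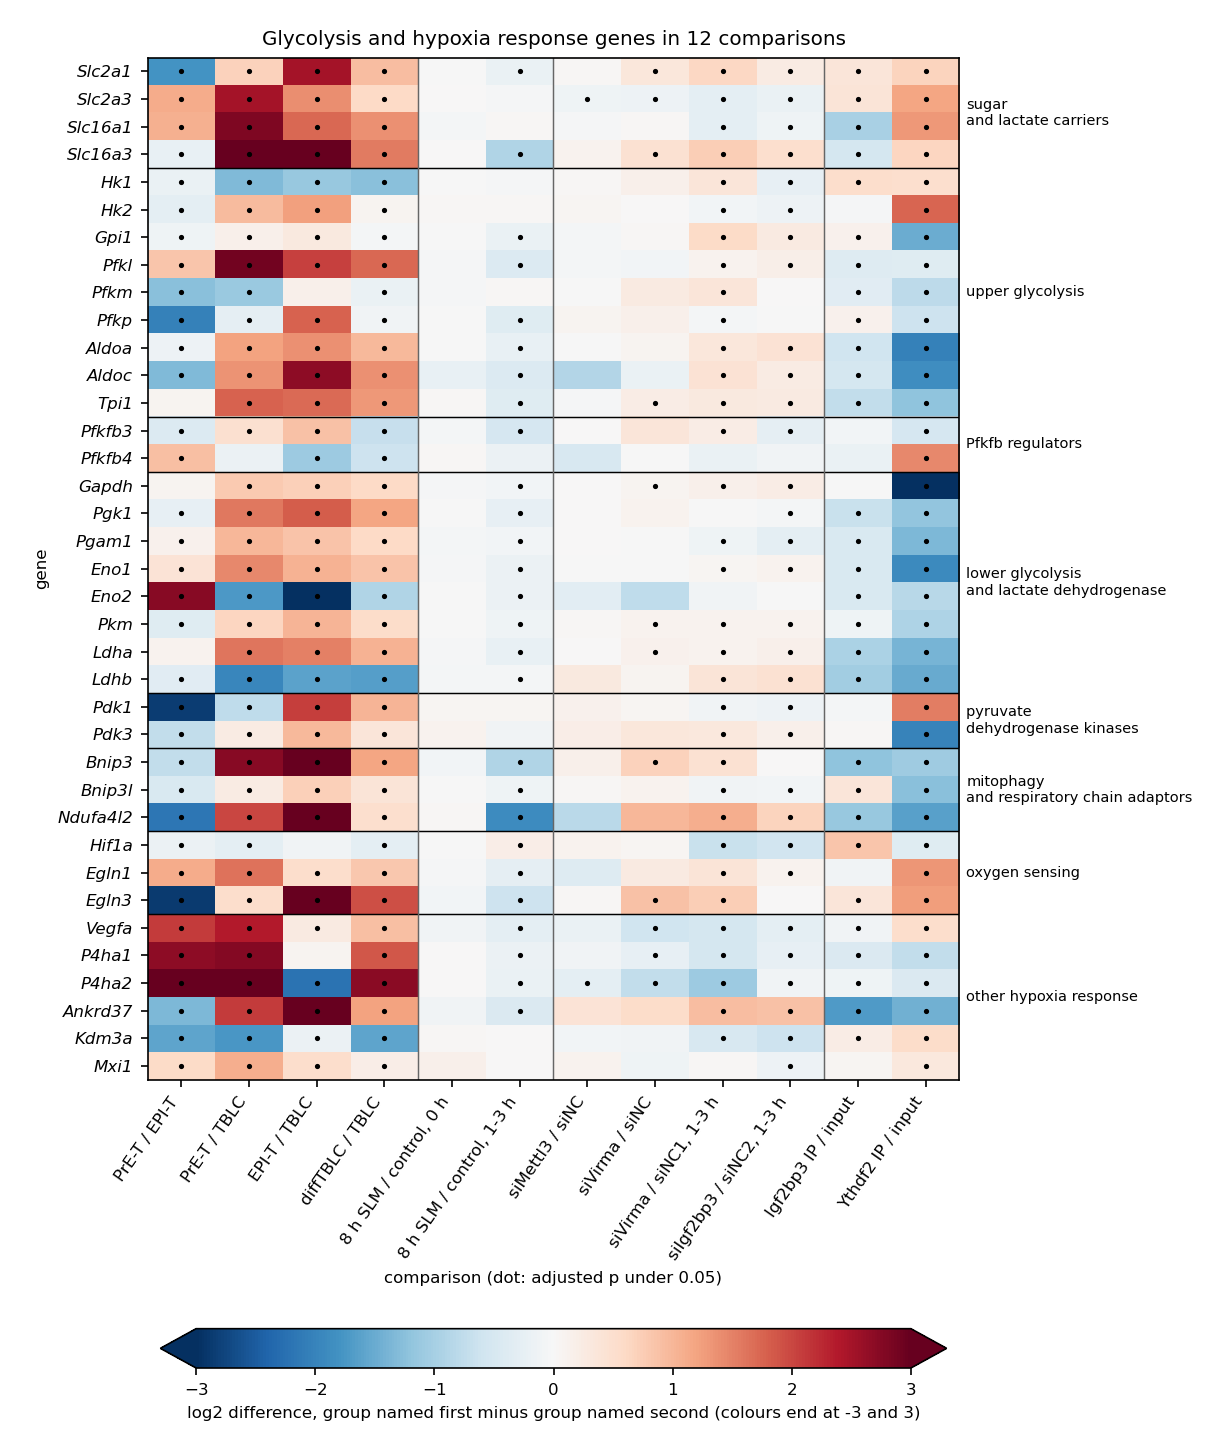
The log2 difference of each of the 37 genes (rows, grouped by role) in 12 comparisons (columns, the group named first minus the group named second). Red marks higher and blue lower in the group named first, colours end at -3 and 3, and a dot marks an adjusted p under 0.05. Most genes of the carriers and of glycolysis are red in the 3 columns against TBLC, and most of lower glycolysis is blue in both IP columns.

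The sorted populations were compared to ask how the CD140-positive cells differ from the CD140-negative cells of the same culture. PrE-T and EPI-T differed in the levels of many of these genes. PrE-T had more mRNA of the collagen prolyl hydroxylases P4ha1 and P4ha2, of Vegfa and of the carriers Slc2a3 and Slc16a1. EPI-T had more of Egln3, Pdk1, Ndufa4l2, Pfkp and Slc2a1. At an adjusted p under 0.05, 12 of the 37 genes were higher in PrE-T and 22 were lower, and 3 did not pass (Gapdh, Tpi1 and Ldha). These 34 are 91.9% of the members, where 68.6% of all tested genes passed in this comparison. At least 2-fold changes were seen in 7 members upward and 9 downward, against 34.5% of all genes in either direction. The median log2 difference of the members was -0.21 and that of all genes 0.03. In all 37 genes the 2 PrE-T and 2 EPI-T values did not overlap, as in 83.6% of all genes. Markers of other cell types differed as well: 12 of 14 fibroblast and feeder markers were higher and 1 lower in PrE-T than in EPI-T, with a median of 1.84, and 6 of 6 markers of 2-cell-like cells were lower, with a median of -4.70. The 2-cell markers summed to 8.12 and 9.57 CPM in PrE-T, against 248 and 254 CPM in EPI-T, and Zfp352 was at 0 in both PrE-T libraries. The fibroblast and feeder markers summed to 546 and 528 CPM in PrE-T, against 664 and 658 CPM in EPI-T. Fn1, the 1 marker that was lower, averaged 303.5 CPM in PrE-T and 598.9 CPM in EPI-T. The part of either list in the result was not tested.

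The carriers did not move as a group between the sorted populations. Slc2a3, the high-affinity glucose transporter GLUT3, had 3988 and 4122 CPM in PrE-T, against 1893 and 1862 CPM in EPI-T and 702 and 732 CPM in TBLC. Slc2a1, the widely expressed glucose transporter GLUT1, had 133 CPM in both PrE-T libraries, against 467 and 458 CPM in EPI-T and 80.6 and 83.5 CPM in TBLC. The order of the sorted populations was thus opposite for the 2 glucose transporters: PrE-T exceeded EPI-T by 1.11 ± 0.045 (log2, SE) for Slc2a3, while Slc2a1 was lower in PrE-T by -1.80 ± 0.055. Slc16a1, the monocarboxylate transporter MCT1, had 343 and 348 CPM in PrE-T, 166 and 163 CPM in EPI-T and 50.8 and 47.9 CPM in TBLC. Slc16a3, the lactate exporter MCT4, had 77.6 and 73.9 CPM in PrE-T, 86.4 and 91.8 CPM in EPI-T and 6.96 and 6.63 CPM in TBLC. Slc16a3 was close between the sorted populations, with a log2 difference of -0.23 ± 0.079, and was over 11-fold higher in each of them than in TBLC (11.1-fold in PrE-T and 13.1-fold in EPI-T).

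In upper glycolysis PrE-T had more mRNA of 1 of 9 enzymes than EPI-T had, and less of 7. The 3 isoforms of phosphofructokinase, the committed step of the pathway, differed in direction. Pfkl, the liver-type isoform, had 553 and 574 CPM in PrE-T, 319 and 313 CPM in EPI-T and 78.0 and 73.5 CPM in TBLC. Pfkp, the platelet-type isoform, had 59.7 and 61.0 CPM in PrE-T, 239 and 252 CPM in EPI-T and 73.2 and 71.7 CPM in TBLC. Pfkl was therefore higher in PrE-T by 0.83 ± 0.053, whereas Pfkp was lower by -2.02 ± 0.064 and Pfkm, the muscle-type isoform, by -1.26 ± 0.10. Aldoc, an aldolase, was lower by -1.33 ± 0.23 at low levels of 6.15 and 4.38 CPM in PrE-T and 12.2 and 14.4 CPM in EPI-T. Hexokinase 2 (Hk2), which traps glucose in the cell, had 383 and 394 CPM in PrE-T, 483 and 466 CPM in EPI-T and 199 and 205 CPM in TBLC, and Aldoa, the main aldolase, had 1107 and 1075, 1236 and 1209, and 456 and 484 CPM in the same order. Both were lower in PrE-T than in EPI-T by small steps, -0.29 ± 0.051 for Hk2 and -0.16 ± 0.049 for Aldoa. Of the regulators, Pfkfb4, an isoform of the enzyme that sets the phosphofructokinase activator fructose-2,6-bisphosphate, was higher in PrE-T by 0.90 ± 0.22 and Pfkfb3 was lower by -0.40 ± 0.15.

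In lower glycolysis the differences between the sorted populations were small, apart from Eno2. Pgk1, phosphoglycerate kinase, had 493 and 495 CPM in PrE-T, 583 and 591 CPM in EPI-T and 169 and 163 CPM in TBLC. Eno1, the main enolase, had 1358 and 1272 CPM in PrE-T, 951 and 1023 CPM in EPI-T and 472 and 494 CPM in TBLC. Ldha, the lactate dehydrogenase subunit that favours lactate production, had 1056 and 1050 CPM in PrE-T, 993 and 955 CPM in EPI-T and 331 and 356 CPM in TBLC. All 4 sorted libraries lay above both TBLC libraries for these genes, and the log2 difference between PrE-T and EPI-T was -0.25 ± 0.049 for Pgk1, 0.41 ± 0.053 for Eno1 and 0.11 ± 0.051 for Ldha (adjusted p = 0.0585). Eno2, the enolase best known from neurons, had 5.67 and 5.70 CPM in PrE-T, 1.11 and 0.576 CPM in EPI-T and 18.9 and 18.8 CPM in TBLC. Ldhb, the subunit that favours pyruvate, had 28.8 and 26.7 CPM in PrE-T, 32.2 and 38.4 CPM in EPI-T and 110 and 105 CPM in TBLC. Eno2 and Ldhb ran against the rest of lower glycolysis, since both were lower in each sorted population than in TBLC.

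The kinases and adaptors that act at the mitochondrion were all lower in PrE-T than in EPI-T (2 of 2 pyruvate dehydrogenase kinases and 3 of 3 mitophagy and respiratory chain adaptors). Pdk1, which switches off pyruvate dehydrogenase, had 57.4 and 56.0 CPM in PrE-T, 405 and 414 CPM in EPI-T and 95.1 and 98.3 CPM in TBLC. It was lower in PrE-T than in EPI-T by -2.85 ± 0.060, and lower than in TBLC by -0.77 ± 0.059. Bnip3, a mitophagy receptor, had 111 and 130 CPM in PrE-T, 191 and 211 CPM in EPI-T and 18.6 and 17.6 CPM in TBLC. Ndufa4l2, a small protein that dampens the respiratory chain in hypoxia, had 5.52 and 5.08 CPM in PrE-T, 22.3 and 25.7 CPM in EPI-T and 1.53 and 1.09 CPM in TBLC. For both genes the order was EPI-T, PrE-T, TBLC without overlap, with log2 differences between PrE-T and EPI-T of -0.74 ± 0.077 for Bnip3 and -2.17 ± 0.19 for Ndufa4l2.

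The genes of oxygen sensing split as well. Egln3, a prolyl hydroxylase that is itself a HIF target, had 8.35 and 7.31 CPM in PrE-T, 57.5 and 57.8 CPM in EPI-T and 5.75 and 5.06 CPM in TBLC. Egln1, the main prolyl hydroxylase of Hif1a, had 140 and 154 CPM in PrE-T, 72.1 and 63.8 CPM in EPI-T and 47.0 and 47.3 CPM in TBLC. Egln3 was thus lower in PrE-T than in EPI-T by -2.88 ± 0.13 and Egln1 higher by 1.11 ± 0.076. Hif1a mRNA changed little, with 129 and 128 CPM in PrE-T, 149 and 142 CPM in EPI-T and 164 and 151 CPM in TBLC, and a log2 difference of -0.18 ± 0.062 between PrE-T and EPI-T. The difference between EPI-T and TBLC in Hif1a did not pass (-0.11, adjusted p = 0.121).

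Among the other hypoxia-response genes P4ha2 had the largest difference of all members between the sorted populations. P4ha2, a catalytic subunit of the enzyme that hydroxylates prolines in collagen, had 527 and 544 CPM in PrE-T, 12.26 and 12.04 CPM in EPI-T and 54.7 and 57.6 CPM in TBLC. P4ha1, its paralog, had 542 and 557 CPM in PrE-T, 88.9 and 82.4 CPM in EPI-T and 76.2 and 86.3 CPM in TBLC. The log2 difference between PrE-T and EPI-T was 5.46 ± 0.072 for P4ha2, or 44.1-fold, and 2.68 ± 0.067 for P4ha1. Vegfa, the endothelial growth factor, had 274 and 305 CPM in PrE-T, 64.9 and 69.3 CPM in EPI-T and 53.9 and 57.6 CPM in TBLC, a difference of 2.11 ± 0.071 between the sorted populations. In the opposite direction Kdm3a, a histone demethylase, had 46.9 and 44.0 CPM in PrE-T, 132 and 140 CPM in EPI-T and 145 and 162 CPM in TBLC. Ankrd37, a small ankyrin-repeat protein and HIF target, had 12.2 and 11.4 CPM in PrE-T, 29.0 and 30.9 CPM in EPI-T and 2.54 and 3.01 CPM in TBLC. Kdm3a was lower in PrE-T than in EPI-T by -1.58 ± 0.074 and Ankrd37 by -1.34 ± 0.14. Thus genes commonly listed together as hypoxia targets were split between the 2 sorted populations, 4 of 6 higher and 2 of 6 lower in PrE-T in this role group.

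**Figure D2:**
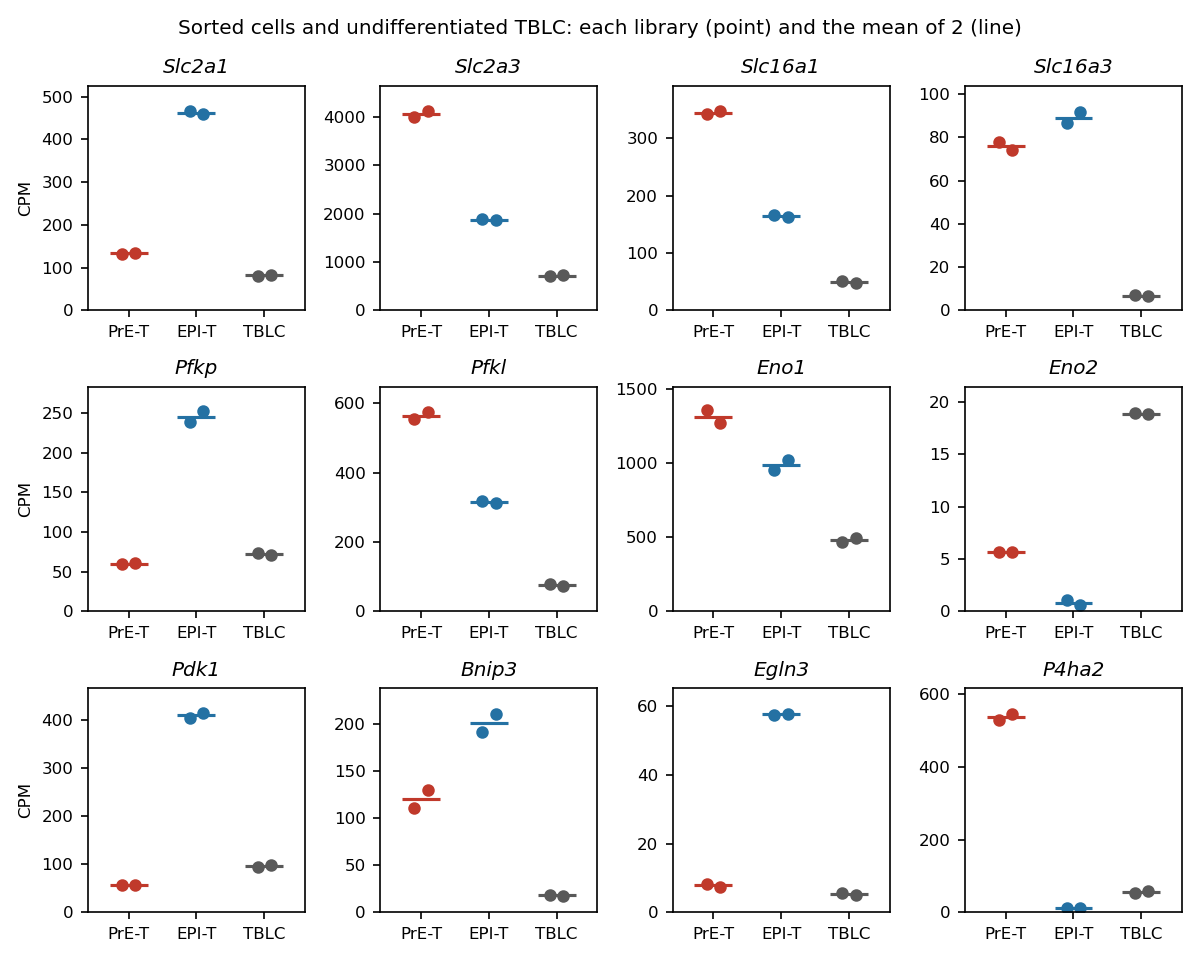
CPM of 12 members (panels, linear axes from 0) in PrE-T, EPI-T and TBLC, each point 1 library and each line the mean of 2. Slc2a3, Slc16a1, Pfkl and P4ha2 are highest in PrE-T, Slc2a1, Pfkp, Pdk1, Bnip3 and Egln3 are highest in EPI-T, and Eno2 is highest in TBLC.

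Against undifferentiated TBLC, most members were higher in both sorted populations. In PrE-T 28 of 37 members were higher and 8 lower than in TBLC, where 33.5% of all genes were higher and 33.8% lower (67.3% in all). By at least 2-fold 18 members were higher and 5 lower, where 10.9% of all genes were higher and 20.2% lower (31.1% in all). In EPI-T 28 were higher and 6 lower, where 30.1% of all genes were higher and 34.8% lower (64.9% in all). By at least 2-fold 19 members were higher and 5 lower, where 9.25% of all genes were higher and 19.8% lower (29% in all). The median log2 difference was 0.98 for the members and -0.03 for all genes in PrE-T, and 1.02 and -0.07 in EPI-T. Scaling by library totals moved the median of all genes to -0.35 in PrE-T and -0.28 in EPI-T, and the counts became 23 higher and 10 lower in PrE-T and 26 and 7 in EPI-T. Both comparisons use the same 2 TBLC libraries. Among the largest rises over TBLC were Slc16a3 at 3.48 ± 0.098, P4ha2 at 3.25 ± 0.061 and Pfkl at 2.89 ± 0.058 in PrE-T, and Ndufa4l2 at 4.18 ± 0.23, Slc16a3 at 3.71 ± 0.099 and Bnip3 at 3.47 ± 0.090 in EPI-T. Among the falls were Ldhb at -1.95 ± 0.094, Kdm3a at -1.75 ± 0.074 and Eno2 at -1.73 ± 0.20 in PrE-T, and Eno2 at -4.45 ± 0.26 and P4ha2 at -2.21 ± 0.072 in EPI-T. P4ha2 went in opposite directions, higher in PrE-T and lower in EPI-T than in TBLC, and Pdk1 and Pfkp did the reverse. The fibroblast and feeder markers (14 genes) summed to 2809 and 2737 CPM in TBLC, were lower in each sorted population for 14 of 14, and of them Lum was at 0 in both EPI-T libraries. The part of these cells in the differences from TBLC was not tested. The PrE markers (8 genes) summed to 14320 and 14330 CPM in PrE-T, 186 and 184 CPM in EPI-T and 1393 and 1353 CPM in TBLC and were thus highest in PrE-T.

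Unsorted diffTBLC at 0 h of actinomycin D were compared with TBLC at 0 h in a separate table. Of the 37 members 27 were higher and 10 lower in diffTBLC, where 42.8% of all genes were higher and 39.7% lower (82.5% in all). By at least 2-fold 13 members were higher and 3 lower, where 13.3% of all genes were higher and 15.5% lower (28.7% in all). The median log2 difference was 0.61 for the members and 0.02 for all genes. All 4 carriers, 6 of 8 genes of lower glycolysis and both pyruvate dehydrogenase kinases were higher, while upper glycolysis split into 5 higher and 4 lower. P4ha2 had 194 and 196 CPM in diffTBLC, against 29.1 and 31.0 CPM in TBLC. Egln3 had 101 and 102 CPM in diffTBLC, against 26.8 and 26.2 CPM in TBLC. Slc16a3 had 190 and 182 CPM in diffTBLC, against 62.6 and 63.9 CPM in TBLC. The groups did not overlap in any of the 37 genes, as in 90.4% of all genes, and the log2 differences were 2.699 ± 0.039 for P4ha2, 1.93 ± 0.046 for Egln3 and 1.56 ± 0.037 for Slc16a3. Downward, Ldhb had 46.1 and 47.4 CPM in diffTBLC, against 146.9 and 146.5 CPM in TBLC, and Kdm3a had 96.3 and 92.4 CPM in diffTBLC, against 283 and 281 CPM in TBLC. Their differences were -1.65 ± 0.038 for Ldhb and -1.58 ± 0.030 for Kdm3a. Hif1a had 80.7 and 81.7 CPM in diffTBLC, against 102 and 98.2 CPM in TBLC, a fall by 0.30 ± 0.038. In all, 24 members were higher in each of PrE-T, EPI-T and diffTBLC than in TBLC of their own table, a pattern of 13.3% of all genes, and 4 (Eno2, Hk1, Kdm3a and Ldhb) were lower in each, as were 13.9%. PrE-T and EPI-T share their TBLC libraries in this count. The PrE markers summed to 3169 and 3161 CPM in diffTBLC and 321 and 327 CPM in TBLC, and the fibroblast and feeder markers to 562 and 547 CPM in diffTBLC and 1159 and 1163 CPM in TBLC.

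The actinomycin D course asks how fast existing mRNA declines once transcription stops. No spike-in is described, so a slope, in log2 units per hour, is measured against the middle of all transcripts and gives no half-life. Against that middle most glycolytic mRNAs gained share in both states. In diffTBLC 26 of 37 members had a positive and 6 a negative slope, where 30.8% of all genes were positive and 28.6% negative (59.4% in all). In TBLC 25 had a positive and 8 a negative slope, where 37.2% of all genes were positive and 28.1% negative (65.2% in all). The median slope was 0.13 for the members and 0.01 for all genes in diffTBLC, and 0.15 and 0.04 in TBLC. Scaled on ribosomal protein genes, no slope of a member was positive past the threshold in either state, and 32 were negative in diffTBLC and 24 in TBLC. Scaled on library totals, 12 were positive and 11 negative in diffTBLC, and 17 and 11 in TBLC. The order among members does not depend on it: Gapdh, at 0.23 ± 0.016 per hour in diffTBLC and 0.29 ± 0.016 in TBLC, lay above Vegfa, at -0.25 ± 0.043 and -0.26 ± 0.044, and above Pfkfb3, at -0.16 ± 0.051 and -0.30 ± 0.046.

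The slopes of 4 members differed between the states, 2 higher and 2 lower in diffTBLC, where 8.21% of all genes passed. Ankrd37 had 28.2 and 28.7 CPM at 0 h, 24.8 and 26.3 CPM at 1 h, 22.7 and 23.0 CPM at 2 h and 24.9 and 25.9 CPM at 3 h in diffTBLC. In TBLC it had 12.73 and 11.97 CPM at 0 h, 6.77 and 7.83 CPM at 1 h, 5.78 and 5.65 CPM at 2 h and 4.24 and 3.96 CPM at 3 h. Ankrd37 thus kept its share in diffTBLC and lost most of it in TBLC, and its slope differed by 0.46 ± 0.052 per hour (adjusted p = 3.32e-05). Slc16a3 also kept more in diffTBLC, with a slope difference of 0.22 ± 0.029, and had 262 and 234 CPM at 3 h in diffTBLC against 53.2 and 51.9 CPM at 3 h in TBLC. Kdm3a had 62.5 and 62.1 CPM at 3 h in diffTBLC, against 270 and 281 CPM at 3 h in TBLC, and its slope was lower in diffTBLC by -0.19 ± 0.039. Pgam1, phosphoglycerate mutase, had a slope lower by -0.12 ± 0.032 in diffTBLC. The calls of Kdm3a and Pgam1 rest on the diffTBLC libraries at 3 h: without replicate 1 or 2 of them the slope difference was -0.11 or -0.10 for Kdm3a and -0.04 or -0.03 for Pgam1, and neither passed. Without the 0 h libraries 29 members passed, 2 higher and 27 lower in diffTBLC, where 33% of all genes passed.

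Cells after 8 h in SLM and TBLC_Ctrl gave no call in any of the 37 genes before actinomycin D, and many of these genes differed from 1 h of the drug onward. At 0 h, 0 of 37 members passed in edgeR's quasi-likelihood test, where 1.25% of all genes passed. DESeq2 also called 0, and 1 member had an unadjusted p under 0.05. The whole libraries of the arms lay 0.0855 apart at 0 h, 0.181 at 1 h, 0.0981 at 2 h and 0.138 at 3 h, where replicates of this table lay 0.0703 to 0.0889 apart. At 0 h the arms thus lay within the spread of replicates, though 1 arm had spent 8 h in SLM. Whether the libraries of this table, at 0 h or later, are as labelled was not tested. The median log2 difference of the members was -0.01. Over 1 to 3 h, 26 members were lower and 1 was higher in TBLC_PlaB- than in TBLC_Ctrl, where 20.7% of all genes passed in either direction and 7.84% passed as lower. The median was -0.18 for the members and 0.01 for all genes. All 8 genes of lower glycolysis and all 3 adaptors were lower, as were 6 of 9 genes of upper glycolysis, 2 of 4 carriers and 4 of 6 of the other hypoxia-response genes. In 7 of 37 members the 6 libraries of each arm over 1 to 3 h did not overlap, as in 1.34% of all genes.

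Ndufa4l2 showed the largest difference among the members. In TBLC_PlaB- it had 7.06 and 7.05 CPM at 0 h, 5.31 and 4.83 CPM at 1 h, 5.21 and 5.47 CPM at 2 h and 3.90 and 3.58 CPM at 3 h. In TBLC_Ctrl it had 7.15 and 6.77 CPM at 0 h, 16.1 and 16.1 CPM at 1 h, 17.1 and 15.1 CPM at 2 h and 19.0 and 20.4 CPM at 3 h. The arms met at 0 h and were apart at each later hour, with a log2 difference over 1 to 3 h of -1.89 ± 0.069 (adjusted p = 1.66e-48). Slc16a3 had 22.2 and 22.2 CPM at 0 h, 19.3 and 20.1 CPM at 1 h, 18.3 and 18.3 CPM at 2 h and 19.5 and 18.8 CPM at 3 h in TBLC_PlaB-. In TBLC_Ctrl it had 21.6 and 22.5 CPM at 0 h, 35.0 and 35.9 CPM at 1 h, 35.7 and 36.8 CPM at 2 h and 34.6 and 36.3 CPM at 3 h. The gap of -0.91 ± 0.041 for Slc16a3 thus lay in a gain in the TBLC_Ctrl libraries after 0 h, while the TBLC_PlaB- libraries changed little. Actinomycin D blocks transcription, and what such a gain reflects was not tested. Bnip3 followed the same course, between 15.99 and 18.5 CPM in TBLC_PlaB- and between 28.6 and 34.1 CPM in TBLC_Ctrl over 1 to 3 h, and differed by -0.90 ± 0.044. Egln3 lay between 4.62 and 6.56 CPM in TBLC_PlaB- and between 8.01 and 9.97 CPM in TBLC_Ctrl over the same hours, and differed by -0.61 ± 0.078. Ankrd37 lay between 3.60 and 9.07 CPM in TBLC_PlaB- and between 4.90 and 13.4 CPM in TBLC_Ctrl, overlapped between the arms and differed by -0.44 ± 0.081. Taken hour by hour Ankrd37 passed at 1 h alone, with an adjusted p of 0.164 at 2 h and 0.109 at 3 h, and its change after 0 h did not pass (-0.34, adjusted p = 0.176). In the separate course of TBLC in 2MYCP, Slc16a3 had 62.6 and 63.9 CPM at 0 h and 57.0 and 55.7 CPM at 1 h. Slc16a3 thus showed no such gain after 0 h there. The slopes per hour in that course were positive for Ndufa4l2 (0.22 ± 0.043) and Bnip3 (0.17 ± 0.039). They were negative for Slc16a3 (-0.08 ± 0.021), Egln3 (-0.24 ± 0.051) and Ankrd37 (-0.53 ± 0.042).

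Glycolytic enzymes moved the same way by smaller steps. Pfkl differed by -0.41 ± 0.018, Tpi1, triosephosphate isomerase, by -0.37 ± 0.018 and Pfkp by -0.36 ± 0.018 over 1 to 3 h. At 3 h Tpi1 had 189 and 178 CPM in TBLC_PlaB- against 229 and 229 CPM in TBLC_Ctrl, and at 0 h 132 and 134 CPM against 131 and 130 CPM. Pgk1 had 318 and 304 CPM at 0 h, 338 and 333 CPM at 1 h, 360 and 358 CPM at 2 h and 415 and 397 CPM at 3 h in TBLC_PlaB-, and 316 and 308, 382 and 380, 439 and 444, and 488 and 481 CPM at the same hours in TBLC_Ctrl. Pgk1 gained share in both arms, less in TBLC_PlaB-, and differed by -0.25 ± 0.015. Ldha differed by -0.23 ± 0.013 and Aldoa by -0.23 ± 0.013. Hif1a was the 1 member that was higher in TBLC_PlaB-, by 0.20 ± 0.025, with 87.6 and 91.3 CPM at 1 h, 77.2 and 77.2 CPM at 2 h and 70.9 and 74.7 CPM at 3 h, against 67.5 and 63.8, 73.8 and 73.8, and 68.7 and 69.1 CPM in TBLC_Ctrl. The arms of Hif1a were furthest apart at 1 h and overlapped over the 6 libraries.

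The change of the difference after 0 h was tested directly. The difference over 1 to 3 h minus that at 0 h was lower for 17 members and higher for 1, where 4.31% of all genes passed, and measured -1.91 for Ndufa4l2, -0.91 for Slc16a3, -0.82 for Bnip3, -0.53 for Egln3 and 0.21 for Hif1a. As a slope over all 4 hours, 5 members had a lower slope in TBLC_PlaB- and 0 a higher one, where 0.411% of all genes passed: Ndufa4l2 by -0.67 ± 0.10 per hour, Bnip3 by -0.30 ± 0.046, Slc16a3 by -0.28 ± 0.061, Pfkp by -0.13 ± 0.021 and Pgk1 by -0.09 ± 0.019. In edgeR's quasi-likelihood test 3 to 5 of these passed when single libraries were left out, and Slc16a3 and Pgk1 were the ones lost. Slc16a3 had an adjusted p between 0.0535 and 0.153 where it was lost, and Pgk1 between 0.0535 and 0.191. The fibroblast and feeder markers moved too: over 1 to 3 h 7 of 14 were higher and 1 lower in TBLC_PlaB-, summing at 3 h to 3072 and 3107 CPM in TBLC_PlaB- and 2744 and 2753 CPM in TBLC_Ctrl, with none at 0. Their part in the result was not tested. Of the 37 other hypoxia genes tested, 5 were higher and 18 lower in TBLC_PlaB- over 1 to 3 h, where 20.7% of all genes passed. Of the other glycolysis genes 1 of 20 was higher and 2 lower.

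**Figure D3:**
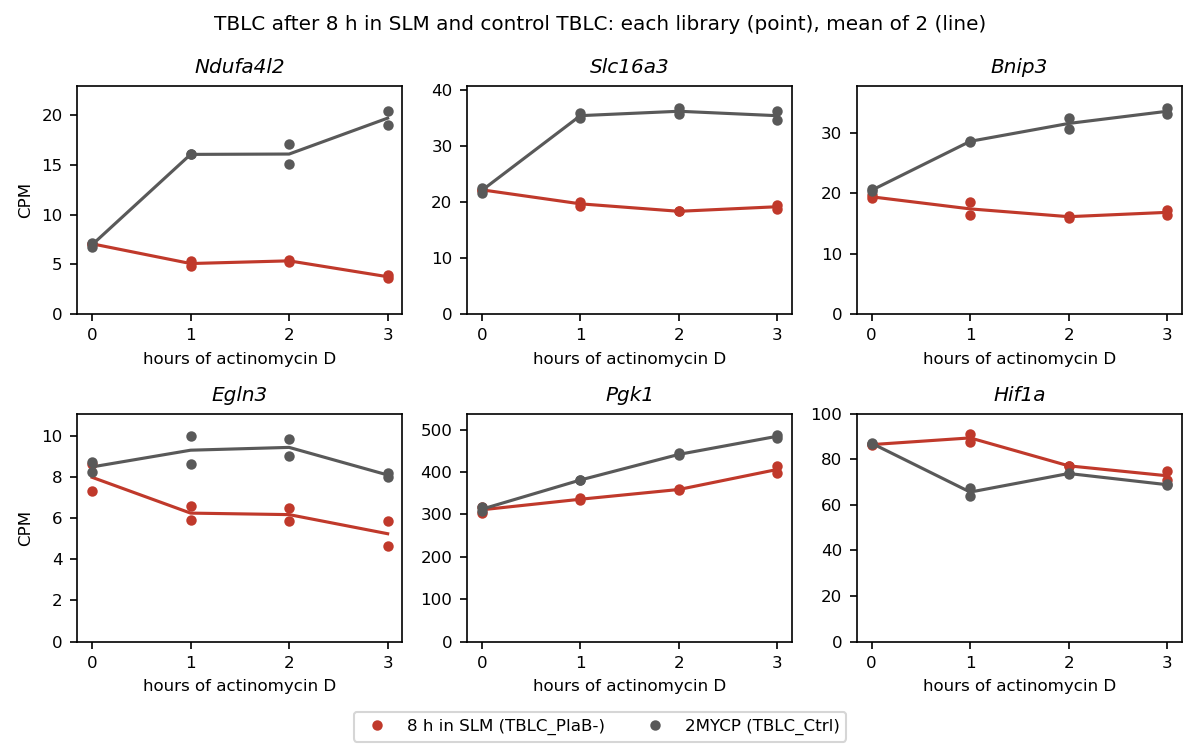
CPM of 6 members (panels, linear axes from 0) over 0 to 3 h of actinomycin D in TBLC after 8 h in SLM (TBLC_PlaB-, red) and in TBLC_Ctrl (grey). Points are single libraries and lines join the means of 2. The arms start together at 0 h, and from 1 h on Ndufa4l2, Slc16a3, Bnip3, Egln3 and Pgk1 are lower in TBLC_PlaB-, while Hif1a is higher at 1 h.

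The steady-state knockdowns ask how these genes depend on the m6A writer in diffTBLC. Virma had 87.1 and 81.0 CPM in siVirma, against 122 and 115 CPM in siNC (-0.50 ± 0.085, adjusted p = 1.88e-06). Mettl3 had 26.4 and 27.4 CPM in the libraries labelled siMettl3, against 31.2 and 29.7 CPM in siNC, and the difference of -0.18 ± 0.15 did not pass (adjusted p = 0.771). In the libraries labelled siMettl3, 2 of 37 members were lower than in siNC and 0 higher, where 0.865% of all genes passed: Slc2a3 by -0.14 ± 0.033 and P4ha2 by -0.29 ± 0.079. Leaving out a single library of either group left 0 or 1 member past the threshold. DESeq2 called 0, and 5 members had an unadjusted p under 0.05. In siVirma 8 members were higher and 4 lower, where 3.48% of all genes were higher and 3.63% lower (7.11% in all). The median was 0.09 for the members and 0.00 for all genes. The count of 12 became 7 without siNC replicate 2 and 8 to 10 without any other single library.

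In siVirma the hypoxia-response genes split, with Egln3 and Bnip3 higher and P4ha2, P4ha1 and Vegfa lower than in siNC. Egln3 had 32.1 and 33.6 CPM in siVirma, 19.5 and 17.2 CPM in the libraries labelled siMettl3 and 21.6 and 14.3 CPM in siNC. Bnip3 had 51.0 and 41.7 CPM in siVirma, 36.2 and 28.1 CPM in the libraries labelled siMettl3 and 30.1 and 27.4 CPM in siNC. Both siVirma libraries lay above both siNC libraries, with differences of 0.87 ± 0.17 for Egln3 and 0.69 ± 0.14 for Bnip3. Slc16a3 had 103 and 95.6 CPM in siVirma, against 70.3 and 74.5 CPM in siNC (0.46 ± 0.095), and Slc2a1 had 558 and 568 CPM in siVirma, against 443 and 439 CPM in siNC (0.35 ± 0.041). Smaller rises passed for Tpi1 (0.22 ± 0.055), Ldha (0.13 ± 0.031), Pkm, pyruvate kinase (0.12 ± 0.025), and Gapdh (0.09 ± 0.025). In the other direction, P4ha2 had 80.8 and 79.5 CPM in siVirma, 110 and 108 CPM in the libraries labelled siMettl3 and 127 and 139 CPM in siNC. Vegfa had 33.8 and 45.2 CPM in siVirma, 54.3 and 49.1 CPM in the libraries labelled siMettl3 and 56.8 and 62.3 CPM in siNC. The siVirma libraries were the lowest for both, by -0.73 ± 0.085 for P4ha2 and -0.59 ± 0.12 for Vegfa, and P4ha1 and Slc2a3 were lower by -0.26 ± 0.080 and -0.14 ± 0.033. Ndufa4l2, with 7.32 and 8.76 CPM in siVirma against 2.99 and 5.05 CPM in siNC, did not pass (1.00 ± 0.38, adjusted p = 0.0886). Hif1a had 202 and 198 CPM in siVirma, against 196 and 185 CPM in siNC, and did not pass (adjusted p = 0.599).

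The 8 PrE markers moved with this result. They summed to 3273 and 3268 CPM in siVirma, 4602 and 4627 CPM in the libraries labelled siMettl3 and 5320 and 5456 CPM in siNC, 8 of 8 were lower in siVirma with a median of -0.90, and none was at 0. In the separate table of sorted cells, Egln3, Bnip3, Slc16a3, Slc2a1 and Pkm had been lower in PrE-T than in EPI-T, P4ha2, P4ha1, Vegfa and Slc2a3 higher, and Tpi1, Ldha and Gapdh had not passed. The part of the lower PrE marker level in the siVirma result was not tested.

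**Figure D4:**
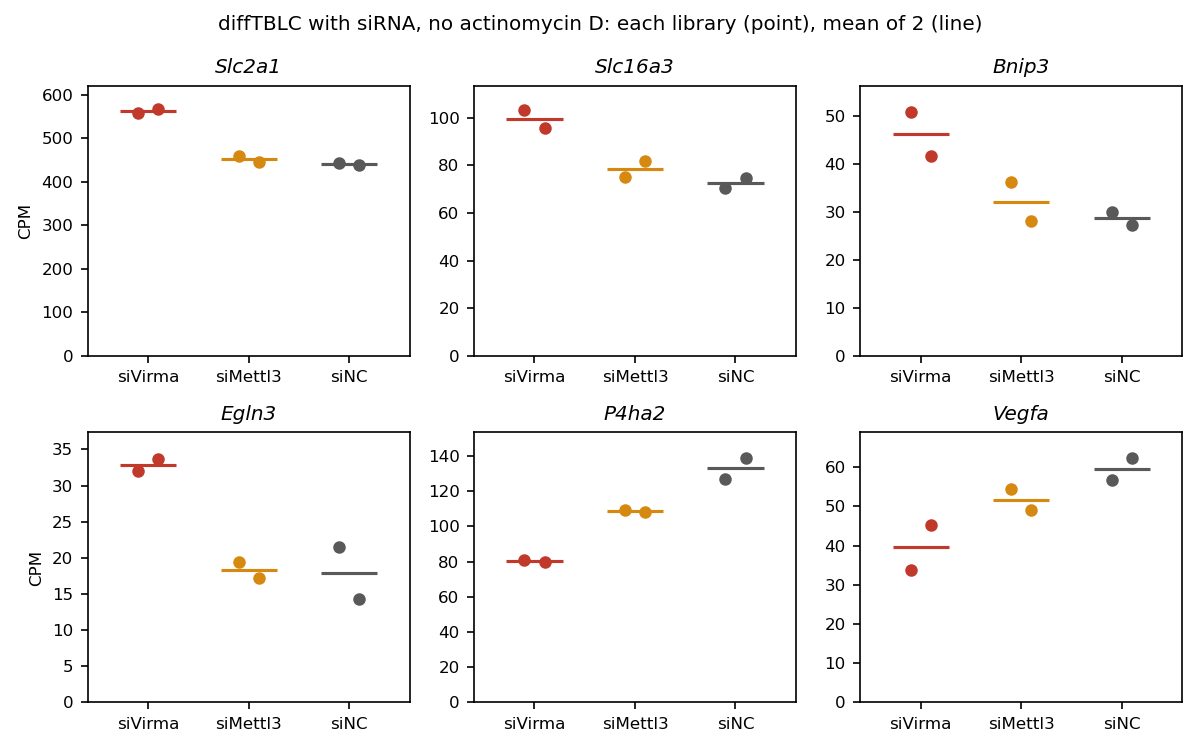
CPM of 6 members (panels, linear axes from 0) in diffTBLC labelled siVirma, siMettl3 or siNC, each point 1 library and each line the mean of 2. The 2 siVirma libraries lie above siNC for Slc2a1, Slc16a3, Bnip3 and Egln3 and below siNC for P4ha2 and Vegfa.

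The actinomycin D course of siVirma gave the same direction for several of these genes at each hour. Virma had 34.7 and 33.6 CPM in siVirma at 0 h, against 40.7 and 41.7 CPM in siNC1, and was lower over 1 to 3 h by -1.04 ± 0.035. At 0 h 20 members were higher and 6 lower in siVirma, where 33.1% of all genes were higher and 27.2% lower (60.3% in all). Over 1 to 3 h 21 were higher and 12 lower, where 35.5% of all genes were higher and 36% lower (71.5% in all). Scaled on library totals, 30 were higher and 2 lower at 0 h. The difference over 1 to 3 h minus that at 0 h passed for 25 members, 10 upward and 15 downward, where 62.9% of all genes passed. At 2 h alone 16 members were higher and 9 lower, where 44.8% of all genes passed, and at 3 h alone 18 were higher and 10 lower, where 56.6% passed. The part of the siNC1 libraries at 0 h, 1 h and 3 h in the change was not tested. The PrE markers were lower in siVirma for 8 of 8 at 0 h and over 1 to 3 h, and summed over 1 to 3 h to between 989.5 and 1066 CPM in siVirma and between 2449 and 3148 CPM in siNC1.

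Egln3 had 79.3 and 80.2 CPM at 0 h, 102 and 104 CPM at 1 h, 91.7 and 91.3 CPM at 2 h and 80.2 and 74.8 CPM at 3 h in siVirma. In siNC1 it had 39.7 and 35.0 CPM at 0 h, 65.4 and 63.0 CPM at 1 h, 52.57 and 49.98 CPM at 2 h and 46.4 and 47.5 CPM at 3 h. The siVirma libraries were higher at each hour, by 1.09 ± 0.058 at 0 h and 0.75 ± 0.031 over 1 to 3 h. Slc2a1 had 632 and 620, 737 and 689, 699 and 726, and 667 and 644 CPM at 0, 1, 2 and 3 h in siVirma, and 477 and 465, 488 and 481, 468 and 466, and 391.7 and 413.7 CPM at the same hours in siNC1. It was higher in siVirma at each hour too, by 0.41 ± 0.042 at 0 h and 0.62 ± 0.024 later. P4ha2 had 66.4 and 66.7, 80.6 and 81.3, 81.1 and 85.4, and 90.7 and 90.5 CPM in siVirma, and 143 and 134, 157 and 152, 193 and 187, and 200 and 202 CPM in siNC1. P4ha2 was lower in siVirma at each hour, by -1.06 ± 0.048 and -1.09 ± 0.027.

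For other members the difference between the arms changed after 0 h. Hif1a had 70.9 and 72.8 CPM at 0 h, 64.0 and 68.4 CPM at 1 h, 60.7 and 58.1 CPM at 2 h and 68.4 and 64.4 CPM at 3 h in siVirma. In siNC1 it had 60.2 and 60.2 CPM at 0 h, 104 and 108 CPM at 1 h, 88.8 and 84.8 CPM at 2 h and 115 and 116 CPM at 3 h. Hif1a was thus higher in siVirma at 0 h by 0.26 ± 0.053 and lower over 1 to 3 h by -0.67 ± 0.029, and its siNC1 values at 0 h lay below all later ones. Pgam1 had 407 and 397 CPM at 0 h in siVirma, against 201 and 222 CPM in siNC1, and 542 and 554 CPM at 3 h, against 635 and 606 CPM. Slc16a3 had 158 and 156 CPM at 0 h in siVirma, against 161 and 168 CPM in siNC1, and 217 and 214 CPM at 3 h, against 117 and 117 CPM, and did not pass at 0 h. Kdm3a was higher in siVirma at 0 h by 0.66 ± 0.057 and lower over 1 to 3 h by -0.48 ± 0.031. As a slope over all hours 4 members differed, 2 higher (Ndufa4l2 and Slc16a3, by 0.30 ± 0.083 and 0.27 ± 0.071 per hour) and 2 lower (Hif1a and Pgam1, by -0.29 ± 0.083 and -0.33 ± 0.088), where 8.94% of all genes passed. Without the 0 h libraries 0 members differed, and leaving out single libraries gave between 0 and 14: 0 without either siNC1 replicate at 0 h, and 13 and 14 without siNC1 replicates 1 and 2 at 1 h. Without siNC1 replicates 1 and 2 at 2 h the counts were 4 and 6.

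At 0 h the level of Igf2bp3 mRNA went against the labels of the arms. The siNC2 libraries at 0 h are in doubt by the distances given above, so this level does not tell which arm is out of place. Igf2bp3 had 28.7 and 25.2 CPM in the libraries labelled siIgf2bp3 at 0 h, against 19.9 and 16.7 CPM in siNC2, higher by 0.56 ± 0.079 (adjusted p = 2.84e-07), and was lower over 1 to 3 h by -0.58 ± 0.041. At 0 h 24 members were higher and 7 lower in the libraries labelled siIgf2bp3, where 41.2% of all genes were higher and 24.6% lower (65.7% in all). Over 1 to 3 h 16 were higher and 15 lower, where 32.9% of all genes were higher and 37.1% lower (70% in all). Scaled on library totals, 10 were higher and 21 lower over 1 to 3 h. The change of the difference after 0 h passed for 31 members, 12 upward and 19 downward, where 73.2% of all genes passed. As a slope, 8 members were higher and 14 lower, where 52.4% of all genes passed, and without the 0 h libraries 0 members differed in slope.

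Hif1a had 82.8 and 81.9 CPM at 0 h, 80.7 and 81.1 CPM at 1 h, 77.3 and 72.7 CPM at 2 h and 71.0 and 64.4 CPM at 3 h in the libraries labelled siIgf2bp3. In siNC2 it had 53.3 and 57.6 CPM at 0 h, 118 and 123 CPM at 1 h, 89.5 and 89.9 CPM at 2 h and 131 and 126 CPM at 3 h. The libraries labelled siIgf2bp3 changed little from hour to hour, the siNC2 libraries at 0 h lay well below the later ones, and the arms differed by -0.58 ± 0.029 over 1 to 3 h. Slc16a3 had 133 and 135, 151 and 148, 162 and 164, and 205 and 194 CPM at 0, 1, 2 and 3 h in the libraries labelled siIgf2bp3, and 163 and 165, 120 and 118, 133 and 134, and 110 and 108 CPM in siNC2. It was lower at 0 h and higher at each later hour, by 0.50 ± 0.024 over 1 to 3 h. Over the same hours Ankrd37 was higher by 0.89 ± 0.060 and Ndufa4l2 by 0.67 ± 0.048, and Kdm3a was lower by -0.62 ± 0.027. The 6 libraries of each arm did not overlap in 4 of 37 members and in 8.09% of all genes. The distance between the arms was 0.335 at 1 h, 0.152 at 2 h and 0.713 at 3 h, and at 2 h alone 13 members passed, where 14.5% of all genes did, and at 3 h alone 31, where 68.3% did. The PrE markers moved with the later hours: 7 of 8 were lower over 1 to 3 h, and they summed to between 1884 and 2223 CPM in the libraries labelled siIgf2bp3 and between 2762 and 3847 CPM in siNC2, with none at 0. Their part in the result was not tested.

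The reader immunoprecipitations ask which of these mRNAs were enriched with Igf2bp3 or Ythdf2. Igf2bp3 mRNA had 81.3 and 80.5 CPM in the Igf2bp3 IP, against 67.4 and 68.0 CPM in its input, and Ythdf2 mRNA had 333 and 341 CPM in the Ythdf2 IP, against 81.1 and 96.3 CPM in its input. The readers differed in which of the 37 mRNAs stood above input, but the enzymes of lower glycolysis, other than Gapdh with Igf2bp3, lay below input in both. In the Igf2bp3 IP 9 members were higher and 20 lower than in input, where 35% of all genes were higher and 34.8% lower (69.7% in all). The median was -0.12 for the members and -0.01 for all genes. In the Ythdf2 IP 13 members were higher and 24 lower, where 40.2% of all genes were higher and 38.8% lower (79% in all). The median there was -0.75 for the members and 0.02 for all genes. Scaled on library totals, the Igf2bp3 counts were 6 higher and 27 lower. An enrichment over input is relative to the other RNA in the same IP, and no IP with an unspecific antibody was used here.

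Hif1a was the member most enriched with Igf2bp3. It had 242 and 251 CPM in the Igf2bp3 IP, against 134 and 144 CPM in input, a difference of 0.82 ± 0.045, and 81.0 and 86.3 CPM in the Ythdf2 IP, against 105 and 109 CPM in input, a difference of -0.35 ± 0.082. The mRNA of the HIF subunit was thus above input with Igf2bp3 and below it with Ythdf2. Hk1, a hexokinase bound to mitochondria, had 135 and 136 CPM in the Igf2bp3 IP, against 93.4 and 95.3 CPM in input (0.52 ± 0.055). Slc2a3 had 2876 and 2903 CPM in the Igf2bp3 IP, against 2268 and 2179 CPM in input, and 6251 and 6350 CPM in the Ythdf2 IP, against 2765 and 2760 CPM in input. Slc2a1 and Egln3 were both 0.37 above input with Igf2bp3 and 0.68 ± 0.044 and 1.25 ± 0.10 above it with Ythdf2. The genes above input in both IPs were Egln3, Hk1, Kdm3a, Slc2a1 and Slc2a3, and 17 members were below input in both, where 19.7% of all genes were above and 22.8% below in both.

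With Ythdf2, all 4 carriers were above input. Hk2 had 1871 and 1905 CPM in the Ythdf2 IP, against 537 and 583 CPM in input, and Pdk1 had 502 and 522 CPM in the Ythdf2 IP, against 173 and 180 CPM in input. These were the largest enrichments among the members, 1.75 ± 0.047 for Hk2 and 1.54 ± 0.060 for Pdk1, and neither gene passed in the Igf2bp3 IP. Egln1 had 268 and 266 CPM in the Ythdf2 IP, against 108 and 106 CPM in input (1.32 ± 0.070). Slc16a1 had 481 and 505 CPM in the Ythdf2 IP, against 204.8 and 198.5 CPM in input (1.29 ± 0.059), but 144.5 and 134 CPM in the Igf2bp3 IP, against 276 and 271 CPM in input (-0.97 ± 0.043). Slc16a1, Slc16a3 and Vegfa were the 3 members above input with Ythdf2 and below it with Igf2bp3, a pattern of 8.76% of all genes, and Bnip3l, Gpi1, Hif1a and Pfkp were the 4 with the opposite pattern, which 7.84% of all genes had.

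All 8 genes of lower glycolysis were below input with Ythdf2 and 7 of 8 with Igf2bp3, where Gapdh did not pass. Gapdh had 520 and 453 CPM in the Ythdf2 IP, against 4029 and 3791 CPM in input, a difference of -3.01 ± 0.048, while it had 1579 and 1602 CPM in the Igf2bp3 IP, against 1620 and 1599 CPM in input. Eno1 had 887 and 849 CPM in the Ythdf2 IP, against 3283 and 3245 CPM in input (-1.91 ± 0.042). Ldha had 570 and 560 CPM in the Igf2bp3 IP, against 1062 and 1125 CPM in input (-0.95 ± 0.026). The adaptor Bnip3 had 66.85 and 59.7 CPM in the Igf2bp3 IP, against 144 and 147 CPM in input, and Ankrd37 had 3.61 and 6.24 CPM, against 18.1 and 13.8 CPM. Both stood well below input, by -1.20 ± 0.057 for Bnip3 and -1.71 ± 0.19 for Ankrd37. The mRNAs encoded in the mitochondrion were below input with Ythdf2 for 9 of 9 genes tested, with a median of -2.59. The fibroblast and feeder markers summed to 3922 and 3874 CPM in the Igf2bp3 IP and 977 and 957 CPM in its input, with 12 of 13 tested above input, and the PrE markers to 9868 and 9867 CPM in the Igf2bp3 IP and 5160 and 5074 CPM in its input, with 7 of 8 above input. The part of either list in the result was not tested. The PrE markers summed to 675 and 672 CPM in the Ythdf2 input and 5160 and 5074 CPM in the Igf2bp3 input, in separate tables and both labelled diffTBLC.

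**Figure D5:**
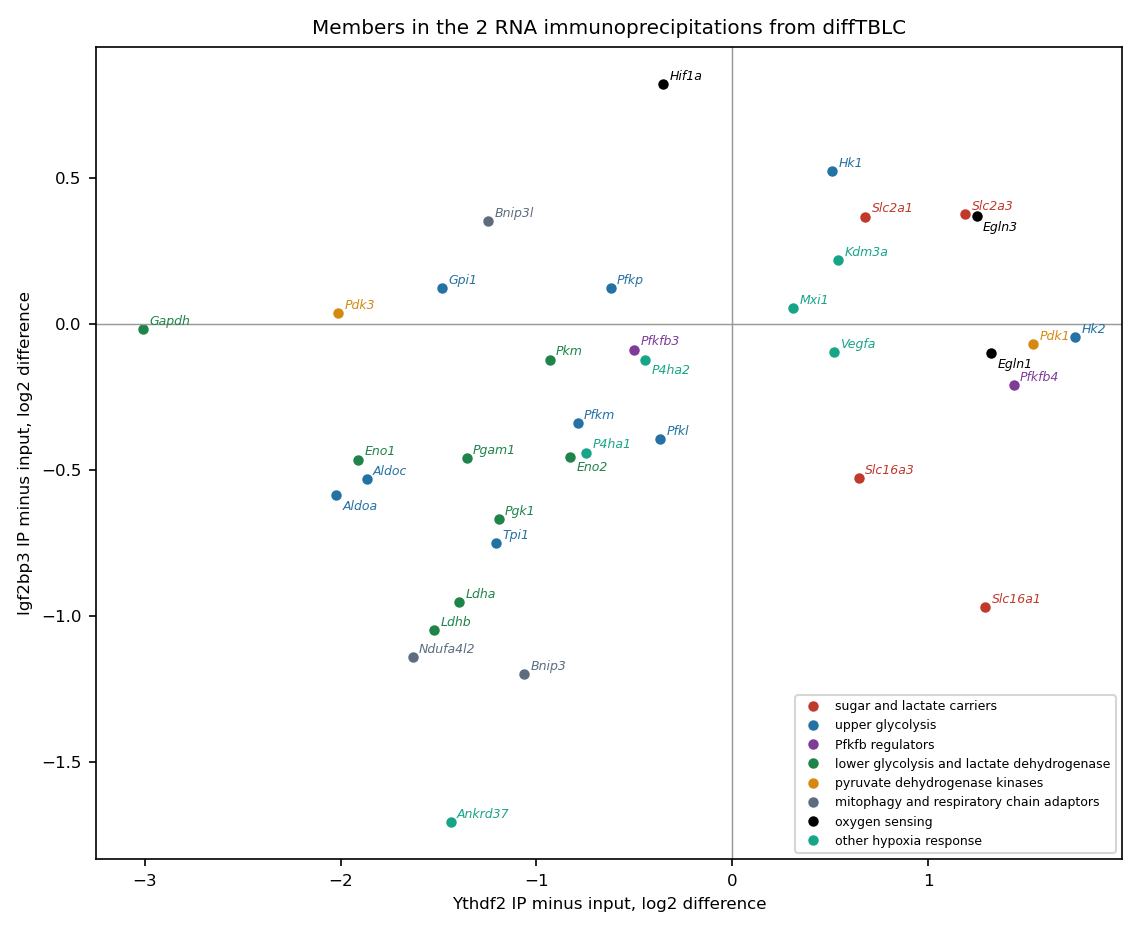
The log2 difference of each of the 37 genes between Ythdf2 IP and input (horizontal axis) and between Igf2bp3 IP and input (vertical axis), each point 1 gene coloured by role. Lower glycolysis lies at or below 0 on both axes, Hif1a is highest on the vertical axis at 0.82, and Hk2 is furthest to the right at 1.75.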

How the data were processed

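Total RNA of 98 mouse samples in 49 groups of 2 was grouped by the labels, and 86 count columns in 9 tables were used. The authors deposited raw read counts per gene. Per the submitters' processing notes, FastQC 0.12.1, Trim Galore, STAR 2.7.11b, Subread, DESeq2 and the mm39 build were used, and the order and settings are not given in the sources used here. Per the labels' protocols, 2 stranded library kits and 2 instruments were used, and which served which samples is not given. Columns named TBLC_S were read as TBLC_PlaB-, the only arm without columns under its own name. Deposited m6A peak lists were not used here.

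Each table was fitted alone with edgeR 4.0.16 in R 4.3.3: genes were kept by filterByExpr with a minimum count of 10, scaled by TMM and tested by the quasi-likelihood test with Benjamini-Hochberg adjustment over all genes of the table, at a threshold of 0.05. CPM are counts scaled to a common library total after TMM, and ± gives the standard error of a log2 difference. All groups of a table share 1 estimate of the spread, and with 2 libraries against 2 an exact permutation test could not go below 0.333. Slopes are linear in hours of actinomycin D. The test was checked on simulated counts. At a log2 change of 0.5 in PrE-T against EPI-T, 55% of 100 changed genes among 14057 were recovered. In TBLC_PlaB- against TBLC_Ctrl over 1 to 3 h, 99% of 100 among 13965 were recovered. Another 100 genes were changed in each simulation, by 1 in the former and by 0.25 in the latter. Of all calls at both sizes and among unchanged genes, 4.64% and 4.28% were false. Far fewer genes were changed there than passed in the data (68.6% and 20.7%), so these shares hold for the simulated setting alone. Alternatives were RLE scaling, library totals, no filter, a replicate block, DESeq2 1.42.0, scaling on ribosomal protein genes, and leaving out each library or hour. Separate tests at 0 h and over 1 to 3 h were set against single hours and against each other after the data were seen. No group has more than 2 libraries, so no check for an outlying replicate was run. Any of the 37 members could be named in a comparison of levels, and only those with the largest changes among slopes and in the libraries labelled siIgf2bp3. The members, role groups and gene lists were chosen with earlier results of these data known. Of the 37 members, 34 matched a RefSeq promoter.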

Additional observations from a re-analysis of the deposited data

Results flagged for a closer look

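In 4 courses of actinomycin D the slopes of some members differed between the arms by a direct test of the difference. Past the threshold were 4 members between diffTBLC and TBLC, where 8.21% of all genes passed. There were 5 between TBLC_PlaB- and TBLC_Ctrl, where 0.411% passed, and 4 between siVirma and siNC1, where 8.94% passed. Between the libraries labelled siIgf2bp3 and siNC2 there were 22, where 52.4% passed.

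The difference between arms over 1 to 3 h also departed from that at 0 h by a direct test, for 18 members between TBLC_PlaB- and TBLC_Ctrl, for 25 between siVirma and siNC1 and for 31 between the libraries labelled siIgf2bp3 and siNC2. In siVirma and in the libraries labelled siIgf2bp3 the share of all genes with such a change was 62.9% and 73.2%, so such a change was common to most genes. In TBLC_PlaB- it was 4.31%.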

How the results depend on the processing

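Of 377 member results followed through 4690 alternative values, 4367 kept direction and side of the threshold, 304 kept the direction but not the threshold and 19 changed sign, and 278 results kept both throughout. With library totals the sign changed for Gpi1 (-0.16), Pdk3 (-0.075) and Bnip3l (-0.083) in PrE-T against TBLC, Hk2 (-0.13) and Mxi1 (-0.0028) in diffTBLC against TBLC, Aldoa (0.0625) in siVirma against siNC1 at 0 h, and Gpi1 (-0.0753) and Pfkp (-0.073) in the Igf2bp3 IP. At 2 h alone Pfkl was at -0.0067 in siVirma against siNC1. With ribosomal protein scaling the slopes became -0.054 for Ndufa4l2, -0.072 for Tpi1 and -0.077 for Gapdh in diffTBLC, and -0.018 for Gapdh, -0.016 for Ldhb and -0.019 for Pgam1 in TBLC. The slope differences became -0.047 for Slc16a3 and -0.033 for Ndufa4l2 in siVirma, and -0.29 for Slc16a3 and -0.12 for Ankrd37 in the libraries labelled siIgf2bp3.

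Counts of members moved by over 1.5 times as follows. In the libraries labelled siMettl3 DESeq2 called 0, and leaving out single libraries gave 0 to 1. In siVirma against siNC leaving out single libraries gave 7 to 10. In the libraries labelled siIgf2bp3, 13 passed at 2 h alone. For the slope difference of diffTBLC, ribosomal protein scaling gave 1, leaving out 0 h gave 29 and 3 h against 0 h gave 18. For TBLC_PlaB- the replicate block gave 3, ribosomal protein scaling 9, leaving out 0 h 11, 3 h against 0 h 14 and leaving out single libraries 3 to 5. For siVirma library totals, no filter, the replicate block, ribosomal protein scaling and leaving out 0 h each gave 0, DESeq2 gave 9, 3 h against 0 h gave 25 and leaving out single libraries gave 0 to 14. For the libraries labelled siIgf2bp3 ribosomal protein scaling gave 36, leaving out 0 h gave 0 and leaving out single libraries gave 16 to 24. The cause was not tested.

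Replicate numbers did not pair the samples: deviations of same-numbered libraries correlated at -0.0478 to 0.0922 over 120 pairs of groups. Groups of 2 libraries, separate tables, no described spike-in and totals of 3968442 to 4750020 counts in the siRNA table limit small differences.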

Other observations

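Genes next to glycolysis and hypoxia that are not among the 37 did not move as 1 block. Of all genes, 68.6% passed in PrE-T against EPI-T and 82.5% in diffTBLC against TBLC at 0 h. In the IPs 69.7% passed with Igf2bp3 and 79% with Ythdf2. The counts below are to be read against these shares. Of the 10 pentose phosphate genes, whose pathway branches off from early glycolysis, 7 were higher and 2 lower in PrE-T than in EPI-T, and 9 were higher and 1 lower in diffTBLC than in TBLC at 0 h. Of the 11 genes of pyruvate entry into the mitochondrion, 2 were higher and 3 lower in PrE-T than in EPI-T, and 7 were higher and 2 lower in diffTBLC than in TBLC. Among further hypoxia genes, 13 of 37 tested were higher and 14 lower in PrE-T than in EPI-T, and 22 of 38 were higher and 11 lower in diffTBLC than in TBLC. In the reader IPs, 8 of 10 pentose phosphate genes were below input with Igf2bp3 and 9 of 10 with Ythdf2, and further hypoxia genes split into 13 above and 16 below with Igf2bp3 and 10 above and 21 below with Ythdf2.

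The group labelled TBLC2, in 2MYCP medium, is in no comparison. Hif1a had 231 and 232 CPM there, Slc2a1 183 and 178 CPM, Slc2a3 598 and 594 CPM, Ldha 536 and 513 CPM and Kdm3a 196 and 201 CPM. Slc16a3 had 9.75 and 12.5 CPM, Bnip3 10.2 and 16.9 CPM, Egln3 3.78 and 6.90 CPM and Ndufa4l2 0.992 and 0.382 CPM.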
